A study of Mus musculus with 8 samples.

Results

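The tumour necrosis factor (TNF) superfamily ligands and receptors were examined in mouse tendon stem cells (TSCs) cultured in high-fat high-glucose (HFHG) or low glucose (LG) medium. Members were chosen by symbol, with earlier results of these data known. The rule took every gene whose symbol begins with Tnfsf or Tnfrsf followed by a digit. It also took Tnf, Lta, Ltb, Ltbr, Fas, Fasl, Cd40, Cd27 and Cd70. This gave 39 of the 19301 genes in the expression table, of which 16 encode ligands and 23 encode receptors. TSCs were primary cells grown out of the patellar tendon of wild-type C57BL/6J mice. The HFHG cells were kept for 4 days in high glucose medium with palmitic acid, a saturated fatty acid, and the LG cells for the same 4 days in low glucose medium with the solvent alone. Glucose and fatty acid were changed together, so their effects cannot be told apart. Each group had 4 mRNA libraries, described as biological replicates, but the sample labels do not say whether they came from separate animals or cultures. The p-values therefore measure the spread between these libraries, which may be in part technical. The cultures were mixed populations and not a clone.

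Ligands of this superfamily are mostly trimeric membrane proteins, some of which are cut from the cell surface. Their receptors fall into those with a cytoplasmic death domain, which can recruit caspases, those that recruit TRAF adaptors and lead mainly to NF-κB and MAP kinase signalling, and decoy or soluble receptors that bind ligand without passing on a signal. In bone, RANKL (Tnfsf11) binding to RANK (Tnfrsf11a) drives osteoclast formation, and the soluble receptor osteoprotegerin (Tnfrsf11b) blocks it. TNF itself acts through Tnfrsf1a, found on most cells, and Tnfrsf1b.

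Values are FPKM, reads scaled to the length of the gene and to a read total of the library. Means are given ± SD over 4 libraries. The totals recovered from the FPKM values were 35385644 to 37362725 reads (HFHG) and 34308108 to 36308533 reads (LG). Between 99.82% and 99.86% of each total fell on the listed genes, so it may not be all mapped reads. LG replicate 4 stood apart: the variance between libraries of a group was 7.88 to 11.4 times the counting variance in pairs with it and 3.45 to 4.75 times in all other pairs. All 16 tendon cell markers were present, with a summed level of 5216 to 5285 FPKM in HFHG and 3682 to 3751 FPKM in LG. Most of this sum came from Bgn, Ly6a, Col1a2, Dcn and Col1a1. Scx (means 2.27 and 1.45 FPKM in HFHG and LG) and Tnmd (1.10 and 0.614 FPKM) were low. In HFHG 13 markers were higher, among them Scx and Tnmd, and 2 were lower, Mkx (log2 fold change -0.35) and Cd44 (-0.13). Over all tested genes, 34.0% were higher and 30.8% lower. Scx overlapped between the groups (HFHG from 1.53, LG up to 1.76 FPKM). By qPCR the paper reported Scx and Tnmd lower in HFHG medium, the other direction, and no significant change of Mkx. The median log2 fold change of these markers was 0.60. Macrophage markers were present too: 14 of 15 had a mean of at least 1 FPKM in a group, and Cd163 was below 0.1 FPKM in every library. Their summed level was 1822 to 1872 FPKM in HFHG and 2013 to 2104 FPKM in LG, most of it from Lyz2. Of the 14 that were tested, 1 was higher in HFHG (Cd14, log2 fold change 0.26) and 10 were lower (down to -0.97 for C1qa), with a median of -0.41. Lymphocyte markers summed to at most 0.458 FPKM, and 7 of 11, among them Cd3d, Cd3e and Ms4a1, were below 0.1 FPKM in every library. Endothelial cell markers summed to 1.68 to 1.84 FPKM in HFHG and 1.90 to 2.23 FPKM in LG. In these bulk libraries, fewer cells of a type and less RNA per cell cannot be told apart.

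Of the 39 members, 19 (5 ligands and 14 receptors) reached 0.5 FPKM in at least 4 libraries and were tested. The other 20 were too low for the fit. Differences were tested with limma on log2(FPKM + 0.1) over all 11710 genes that passed this filter, with Benjamini-Hochberg adjustment. The added 0.1 makes the log2 fold change understate the difference for low genes. At an adjusted p below 0.05, 16 of the 19 tested members differed between HFHG and LG, against 64.8% of all tested genes. Of these, 6 were higher in HFHG (background 34.0% of genes) and 10 were lower (background 30.8%). The 6 higher members were the ligands Tnfsf11 and Tnfsf12 and the receptors Fas, Tnfrsf21, Tnfrsf14 and Tnfrsf1a. The 10 lower members were the ligands Tnf and Tnfsf9 and the receptors Tnfrsf12a, Tnfrsf9, Tnfrsf26, Tnfrsf22, Tnfrsf23, Tnfrsf10b, Ltbr and Cd40. The values of the 2 groups did not overlap for 16 of the 19 members (background 59.2%). A log2 fold change above 1 was reached by Tnfsf11 alone (background 3.68%), and one below -1 by Tnfrsf9 alone (background 1.65%). The median log2 fold change of the 19 members was -0.13, against 0.02 over all tested genes, and the median of its absolute value was 0.43 against 0.25.

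**Figure D1:**
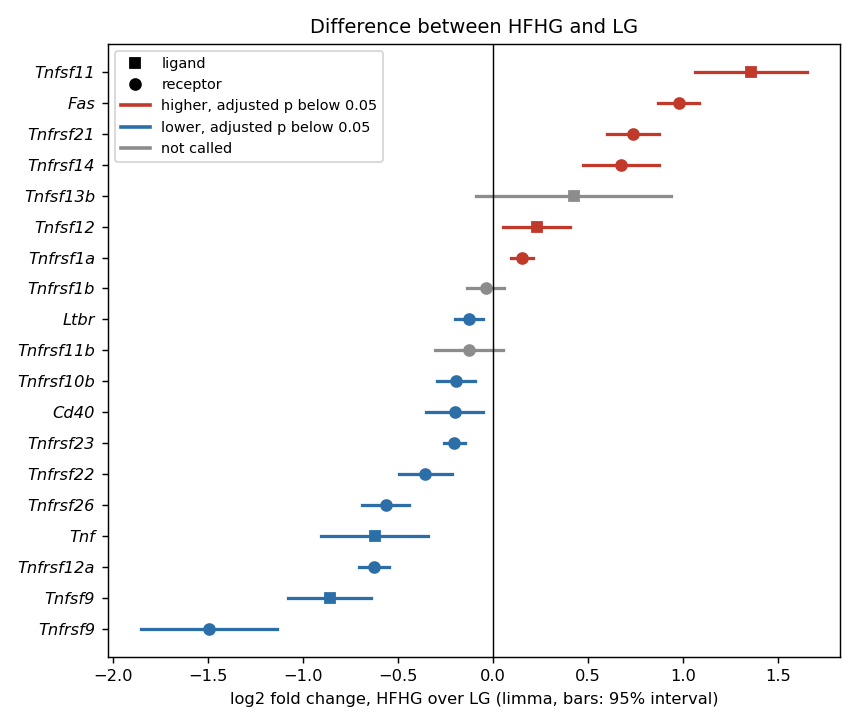
Log2 fold change of FPKM (HFHG minus LG) of the 19 tested members, with points for the estimate, bars for the 95% confidence interval of the limma fit and colour for higher, lower or not called at an adjusted p below 0.05. Tnfsf11 (1.36) and Fas (0.98) lie farthest to the right and Tnfrsf9 (-1.49) farthest to the left, while the intervals of Tnfsf13b, Tnfrsf1b and Tnfrsf11b cross 0.

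The stretch of 250 bases before the start site is shown for the members on which the results below turn: the ligand and the receptor with the largest increases, the most abundant receptor, and Tnf. The sequences are from RefSeq (build GRCm38.p6), whose table held a promoter for 30 of the 39 members. For Fas, the start site used lies inside the gene coordinates given below, so the last bases printed overlap the gene. They are written 5′ to 3′ in the direction of the gene, in lower case, with motif matches on either strand in capitals.
Tnfsf11 (chr14:78308044-78308293, - strand): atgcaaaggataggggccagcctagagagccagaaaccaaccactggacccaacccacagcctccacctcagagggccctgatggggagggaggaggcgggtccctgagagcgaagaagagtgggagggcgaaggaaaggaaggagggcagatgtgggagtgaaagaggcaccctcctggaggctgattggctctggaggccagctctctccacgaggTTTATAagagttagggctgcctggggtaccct
Fas (chr19:34290409-34290658, + strand): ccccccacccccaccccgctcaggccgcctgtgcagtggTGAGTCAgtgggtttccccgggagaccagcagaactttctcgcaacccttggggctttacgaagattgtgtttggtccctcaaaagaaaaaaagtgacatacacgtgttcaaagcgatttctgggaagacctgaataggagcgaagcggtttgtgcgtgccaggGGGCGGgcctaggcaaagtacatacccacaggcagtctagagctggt
Tnfrsf12a (chr17:23677450-23677699, - strand): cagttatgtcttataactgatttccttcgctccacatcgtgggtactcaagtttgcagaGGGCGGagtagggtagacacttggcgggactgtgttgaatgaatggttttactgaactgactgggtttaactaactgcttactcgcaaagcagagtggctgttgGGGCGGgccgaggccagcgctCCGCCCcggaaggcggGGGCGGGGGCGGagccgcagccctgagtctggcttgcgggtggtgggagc
Tnf (chr17:35202008-35202257, - strand): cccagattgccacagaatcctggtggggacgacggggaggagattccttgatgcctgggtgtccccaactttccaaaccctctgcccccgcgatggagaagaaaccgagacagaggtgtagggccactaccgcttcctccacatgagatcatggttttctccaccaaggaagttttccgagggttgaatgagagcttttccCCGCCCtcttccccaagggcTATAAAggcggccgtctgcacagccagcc
The motifs searched were the AP-1 site (TGANTCA), the GC box (GGGCGG), the TATA box (TATAAA) and the NF-κB site. Tnf held a TATA box and a GC box, Fas an AP-1 site and a GC box, and Tnfrsf12a 5 GC boxes, 2 of which touch. In Tnfsf11 the TATA letters matched only on the opposite strand (TTTATA) and not in the direction of the gene. Over all 27025 promoters of the table, of genes tested or not, 6.87% held the AP-1 site and 32.9% the GC box. The TATA box was held by 13.0% and the NF-κB site by 7.01%, all on either strand. Among the changed members with a promoter in the table, a GC box was present in 2 of the 5 that were higher and in 5 of the 5 that were lower. An AP-1 site was present in 1 and 0, the TATA letters on either strand in 1 and 2, and an NF-κB site in 0 and 0 of the same groups of 5. These are matches of letters in a short window and not binding sites. The shares among tested genes alone were not computed, so no enrichment can be read from these counts.

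The most abundant members were receptors, and 5 of them had a mean of at least 20 FPKM in a group. Tnfrsf12a, Tnfrsf1a, Ltbr and Tnfrsf23 together made up 81.9% of the summed FPKM of all receptor members in HFHG and 85.1% in LG. The summed receptor level was 447 ± 6.58 FPKM in HFHG and 531 ± 18.2 FPKM in LG. The ligands together came to 19.8 ± 1.32 FPKM in HFHG and 23.3 ± 2.16 FPKM in LG. Tnfsf9 made up 39.2% of the ligand level in HFHG and 60.7% in LG, Tnfsf12 25.0% and 18.0%, and Tnfsf11 17.2% and 5.596%. Tnfsf9 was the most abundant ligand and Tnfsf12 the next in both groups. No test was made of these sums.

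**Figure D2:**
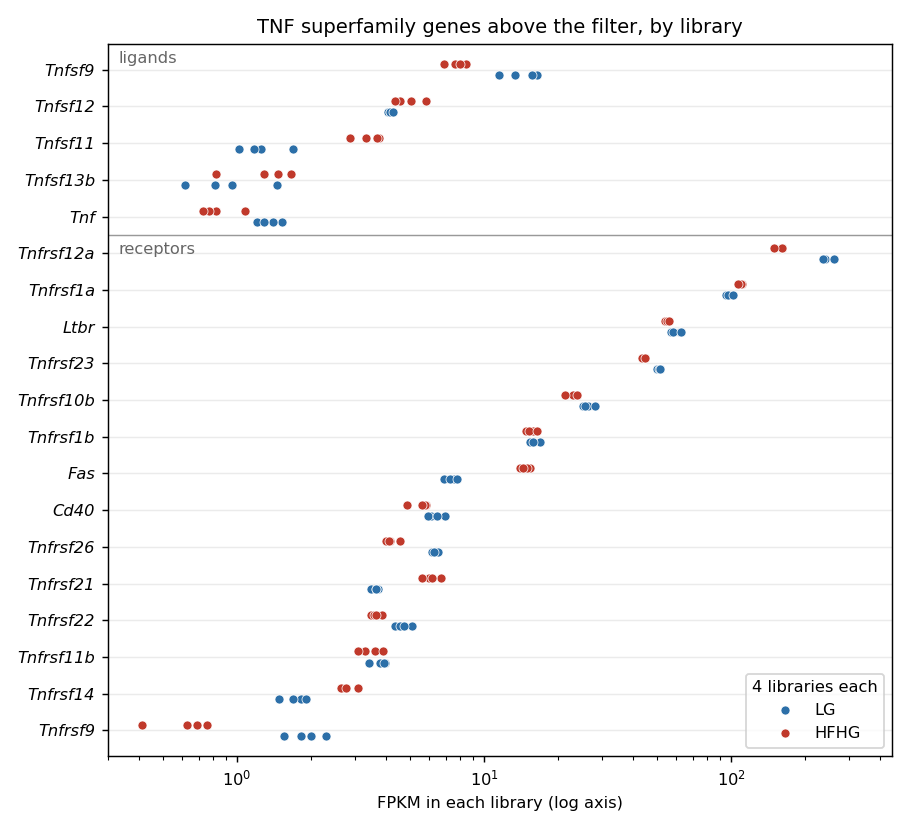
Level of each of the 19 tested members in every library (FPKM, log axis), with 1 point per library coloured by group, receptors and ligands in separate blocks. Receptor levels run from 0.414 FPKM (Tnfrsf9) to 262 FPKM (Tnfrsf12a), and the points of the 2 groups overlap only for Tnfrsf11b, Tnfrsf1b and Tnfsf13b.

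Tnfsf11, which encodes RANKL (chr14:78277446-78308043), rose in HFHG. Its level was 3.77, 3.68, 3.32 and 2.86 FPKM in HFHG replicates 1 to 4 and 1.25, 1.17, 1.68 and 1.02 FPKM in LG replicates 1 to 4. Every HFHG library lay above every LG library. The means were 3.41 ± 0.412 and 1.28 ± 0.283 FPKM, a log2 fold change of 1.36 (SE 0.136, limma adjusted p = 1.90e-06). The tendon cell markers rose too (median 0.60), and their part in this result was not tested. Its decoy receptor osteoprotegerin, Tnfrsf11b, was at 3.29, 3.62, 3.08 and 3.90 FPKM in HFHG and 3.97, 3.79, 3.95 and 3.44 FPKM in LG. These groups overlapped, and no difference was detected (log2 fold change -0.13, 95% interval -0.30 to 0.05, limma adjusted p = 0.196). The ratio of Tnfsf11 to Tnfrsf11b FPKM was 1.15, 1.02, 1.08 and 0.735 in the HFHG libraries and 0.315, 0.309, 0.425 and 0.296 in the LG libraries. Ligand and decoy were thus at about equal FPKM in HFHG (mean ratio 0.994 ± 0.181), and the decoy was the more abundant transcript in LG (0.336 ± 0.0596). The ratio was 2.96-fold higher in HFHG, with no overlap of the libraries, and was not given a test of its own. The signalling receptor RANK, Tnfrsf11a, was low, with 0.260 ± 0.0882 FPKM in HFHG and 0.216 ± 0.0684 FPKM in LG (exact two-sided permutation p = 0.429).

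**Figure D3:**
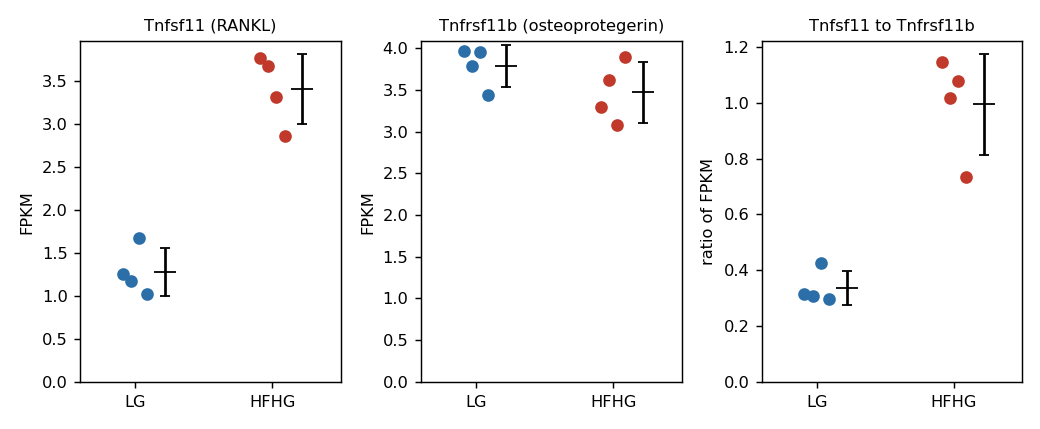
Tnfsf11 (RANKL) and Tnfrsf11b (osteoprotegerin) in FPKM, and the Tnfsf11 to Tnfrsf11b ratio, with 1 point per library and bars for the mean ± SD of 4 libraries. Tnfsf11 and the ratio are separated between HFHG and LG (ratio 0.735 to 1.15 against 0.296 to 0.425), while Tnfrsf11b overlaps.

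Among the receptors with a death domain, Fas, Tnfrsf21 and Tnfrsf1a were higher in HFHG and Tnfrsf10b was lower, while Tnfrsf25 was below the filter (at most 0.0890 FPKM). Fas (chr19:34290647-34327775), which triggers apoptosis when bound by Fas ligand, was at 13.9, 15.4, 14.9 and 14.4 FPKM in the HFHG libraries and 6.91, 7.55, 7.29 and 7.78 FPKM in the LG libraries. The lowest HFHG library lay well above the highest LG library. The means of 14.7 ± 0.636 and 7.38 ± 0.371 FPKM gave a log2 fold change of 0.98 (SE 0.0497, limma adjusted p = 3.02e-09). Its ligand was close to absent: Fasl had 0 reads in every HFHG library and 4, 1, 1 and 0 reads in the LG libraries. At these depths, 0 reads still allow up to about 3 reads in a library, counting error only. Tnfrsf21, a death domain receptor best known from neurons and immune cells, was at 6.001, 6.70, 5.62 and 6.15 FPKM in HFHG and 3.71, 3.48, 3.66 and 3.66 FPKM in LG. The groups did not overlap, and the log2 fold change was 0.74 (limma adjusted p = 4.38e-07).

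Tnfrsf1a, the main TNF receptor of non-immune cells, was abundant in both groups. It was at 110, 108, 110 and 107 FPKM in HFHG and 97.2, 95.03, 97.1 and 101 FPKM in LG. The groups did not overlap, but the change was small (log2 fold change 0.16, limma adjusted p = 1.89e-04). Tnfrsf10b, the mouse death receptor for TRAIL (Tnfsf10), moved the other way, with 23.8, 23.0, 23.8 and 21.3 FPKM in HFHG and 26.2, 25.2, 25.5 and 28.2 FPKM in LG (log2 fold change -0.19, limma adjusted p = 0.00252). Its transcript shares 9.07% of its 50-base words with another gene, so some of its reads may have been assigned elsewhere. Tnfsf10 itself was listed at no more than 0.0221 FPKM in any library.

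Tnf (chr17:35199367-35202007) fell in HFHG. It was at 0.826, 0.769, 1.08 and 0.728 FPKM in the HFHG libraries and 1.20, 1.52, 1.40 and 1.29 FPKM in the LG libraries. The highest HFHG library was below the lowest LG library, with means of 0.850 ± 0.156 and 1.35 ± 0.137 FPKM (log2 fold change -0.62, limma adjusted p = 0.001005). Tnfrsf1b, its receptor on immune and endothelial cells, was at 14.7 to 16.4 FPKM in HFHG and 15.4 to 16.8 FPKM in LG. No difference was detected (log2 fold change -0.04, 95% interval -0.13 to 0.06, limma adjusted p = 0.475). Markers of macrophages, a main source of Tnf in tissue, fell in the same direction (median log2 fold change -0.41), and their part in this result was not tested. 

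Lta, which encodes lymphotoxin alpha and lies next to Tnf on chromosome 17, was below the filter but went the opposite way. Its libraries held 52, 24, 24 and 28 reads in HFHG (0.855, 0.417, 0.410 and 0.471 FPKM) and 11, 5, 15 and 17 reads in LG (0.197, 0.0846, 0.260 and 0.294 FPKM). The groups did not overlap, HFHG replicate 1 was well above the rest, and the exact two-sided permutation p was 0.0286, the smallest that 4 against 4 libraries can give. This p is not adjusted for the 20 members below the filter. In the fit without the filter, Lta had a log2 fold change of 1.05 (limma adjusted p = 0.0123). The rate of reads was 2.60 times higher in HFHG, with an interval of 1.85 to 3.70 that covers counting error only. Without HFHG replicate 1 the mean was 0.433 ± 0.0334 FPKM (n = 3) against 0.209 FPKM in LG. Leaving out the highest library of the higher group cannot make the groups overlap, so this does not test the separation. Ltb, the membrane-bound partner of lymphotoxin alpha and the third gene of this 11.1 kb stretch, was listed at no more than 0.0258 FPKM in any library. The lymphotoxin beta receptor Ltbr was at 54.8, 53.9, 55.1 and 56.3 FPKM in HFHG and 62.0, 57.0, 58.4 and 62.4 FPKM in LG, without overlap. Its log2 fold change was -0.12 (limma adjusted p = 0.00607), and the call was lost when the libraries were scaled to the same sum (adjusted p = 0.0853, range over all alternatives 0.00136 to 0.0853).

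Tnfrsf12a (chr17:23675445-23677449) encodes the receptor for the ligand TWEAK (Tnfsf12) and was the most abundant member. It was at 161, 160, 161 and 150 FPKM in HFHG and 237, 241, 235 and 262 FPKM in LG. All HFHG libraries lay below all LG libraries, with HFHG replicate 4 lowest. The means were 158 ± 5.41 and 244 ± 12.3 FPKM, a log2 fold change of -0.62 (SE 0.0361, limma adjusted p = 1.04e-08). It made up 45.8% of the summed receptor level in LG and 35.3% in HFHG. Its ligand Tnfsf12 was at 5.80, 4.57, 5.05 and 4.36 FPKM in HFHG and 4.10, 4.15, 4.16 and 4.30 FPKM in LG. The lowest HFHG library was only just above the highest LG library. The log2 fold change of 0.23 (limma adjusted p = 0.0243) did not pass the threshold in 6 of 18 alternatives (adjusted p 0.00585 to 0.113 over all of them), among them the fit without HFHG replicate 1 (0.0727), without HFHG replicate 3 (0.0567) and without LG replicate 1 (0.0517). Tnfsf12 also shares 49.0% of its 50-base words with a readthrough transcript that joins it to its neighbour Tnfsf13, so reads of these transcripts cannot be told apart in the shared stretch.

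Tnfsf9 and its receptor Tnfrsf9, a co-stimulatory pair best known from antigen-presenting cells and activated T cells, both fell in HFHG. Tnfsf9 was at 7.63, 8.49, 7.97 and 6.87 FPKM in HFHG and 16.4, 13.4, 11.5 and 15.6 FPKM in LG. Tnfrsf9 was at 0.753, 0.686, 0.414 and 0.630 FPKM in HFHG and 1.99, 1.55, 2.30 and 1.81 FPKM in LG. For both genes every HFHG library was below every LG library. The log2 fold change was -0.86 for Tnfsf9 (SE 0.0999, limma adjusted p = 7.88e-06) and -1.49 for Tnfrsf9 (SE 0.165, limma adjusted p = 4.88e-06). In 5 ligand and receptor pairs both genes were above the filter. This was the only pair with both called lower at an adjusted p below 0.05, and in no pair were both called higher. Macrophage markers fell as well and lymphocyte markers were near 0 (at most 0.458 FPKM in sum), and the part of the macrophage markers in these results was not tested.

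Among the other receptors that recruit TRAF adaptors, Tnfrsf14 rose and Cd40 fell. Tnfrsf14, the receptor for the ligand LIGHT (Tnfsf14), was at 2.68, 2.64, 3.08 and 2.77 FPKM in HFHG and 1.48, 1.81, 1.68 and 1.90 FPKM in LG. It was higher in every HFHG library, with a log2 fold change of 0.67 (limma adjusted p = 3.27e-05). Its longest transcript (1173 bases) shares 5.78% of its 50-base words with another gene. The length behind its FPKM was 4944 bases, so most of it was not compared. Tnfsf14 was low and overlapped between the groups (0.246 ± 0.101 and 0.371 ± 0.0912 FPKM, exact two-sided permutation p = 0.143). Cd40, the receptor through which T cells activate antigen-presenting cells, was at 4.89 to 5.84 FPKM in HFHG and 5.93 to 6.94 FPKM in LG. Its log2 fold change was -0.20 (limma adjusted p = 0.0233). The call was lost in 4 of 18 alternatives (adjusted p 0.00596 to 0.0853 over all of them), among them those without HFHG replicate 4 (0.0731) and without LG replicate 3 (0.0759).

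Tnfrsf26, Tnfrsf22 and Tnfrsf23 lie side by side within 78.8 kb of chromosome 7 (chr7:143607685-143686436), and all 3 fell in HFHG. Tnfrsf22 and Tnfrsf23 are decoy receptors for TRAIL in mice, and the signalling of Tnfrsf26 is unsettled. Tnfrsf26 was at 4.18, 4.58, 4.02 and 4.12 FPKM in HFHG and 6.21, 6.13, 6.50 and 6.28 FPKM in LG (log2 fold change -0.56, limma adjusted p = 2.14e-06). Tnfrsf23 was at 44.9, 44.2, 43.8 and 44.9 FPKM in HFHG and 50.2, 51.5, 51.3 and 51.6 FPKM in LG (log2 fold change -0.20, limma adjusted p = 1.71e-05). Tnfrsf22 was at 3.49 to 3.86 FPKM in HFHG and 4.36 to 5.09 FPKM in LG (log2 fold change -0.35, limma adjusted p = 3.86e-04). None of the 3 overlapped between groups. Tnfrsf22 and Tnfrsf23 share 27.7% and 21.8% of their 50-base words with other genes, and in each case most with the other one, so part of their reads could have been split between them and their separate values are uncertain. The longest transcript of Tnfrsf26 (3107 bases) shares none with any other gene. The length behind its FPKM was 4298 bases, so not all of it was compared.

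The remaining tested member, Tnfsf13b (BAFF, a survival factor for B cells), was at 1.65, 0.820, 1.28 and 1.47 FPKM in HFHG and 0.956, 0.812, 0.617 and 1.46 FPKM in LG. The groups overlapped and the log2 fold change of 0.43 (95% interval -0.09 to 0.94) did not pass the test (limma adjusted p = 0.131). It did pass without HFHG replicate 2 (0.62, adjusted p = 0.0281) and without LG replicate 4 (0.63, adjusted p = 0.0230), in a range of 0.0230 to 0.345 over all alternatives.

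Of the 20 members below the filter, 10 stayed under 0.1 FPKM in every library: Cd27, Cd70, Fasl, Ltb, Tnfrsf13c, Tnfrsf19, Tnfrsf25, Tnfsf10, Tnfsf18 and Tnfsf4. Apart from Lta, the other 9 (Tnfrsf11a, Tnfrsf13b, Tnfrsf18, Tnfrsf4, Tnfrsf8, Tnfsf13, Tnfsf14, Tnfsf15 and Tnfsf8) overlapped between the groups. Tnfsf13 (APRIL, a ligand of B cell receptors) came nearest to a separation, with 0.159, 0.135, 0.215 and 0.424 FPKM in HFHG and 0.139, 0.0984, 0.0336 and 0.117 FPKM in LG (exact two-sided permutation p = 0.0571). Tnfsf8, the ligand of the lymphocyte receptor Tnfrsf8, was at 0.216, 0.0661, 0.325 and 0.227 FPKM in HFHG and 0.424, 0.336, 0.454 and 0.204 FPKM in LG (p = 0.143, exact permutation). Tnfrsf4, a receptor of activated T cells, was at 0.532, 0.247, 0.353 and 0.196 FPKM in HFHG and 0.232, 0.0438, 0.0673 and 0.290 FPKM in LG (p = 0.143, exact permutation). For these 3 genes the pooled reads differed by more than counting error, but the libraries of the groups overlapped. The read rates were 2.42 (95% interval 1.47 to 4.11), 0.591 (0.466 to 0.747) and 2.12 (1.34 to 3.45) times those of LG. The same held for Tnfrsf18 (1.71, 1.09 to 2.72), Tnfsf14 (0.667, 0.481 to 0.919) and Fasl (0, at most 0.828). These intervals cover counting error only and not the spread between libraries, which was wider. Tnfrsf18, the neighbour of Tnfrsf4, had means of 0.373 ± 0.158 and 0.220 ± 0.158 FPKM, Tnfrsf13b 0.343 ± 0.132 and 0.353 ± 0.111 FPKM, Tnfsf15 0.217 ± 0.0489 and 0.173 ± 0.0557 FPKM in HFHG and LG (exact two-sided permutation p = 0.257, 0.914 and 0.257). Tnfrsf8 was at 0.0323 to 0.151 FPKM in HFHG and 0.0643 to 0.197 FPKM in LG.

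**Figure D4:**
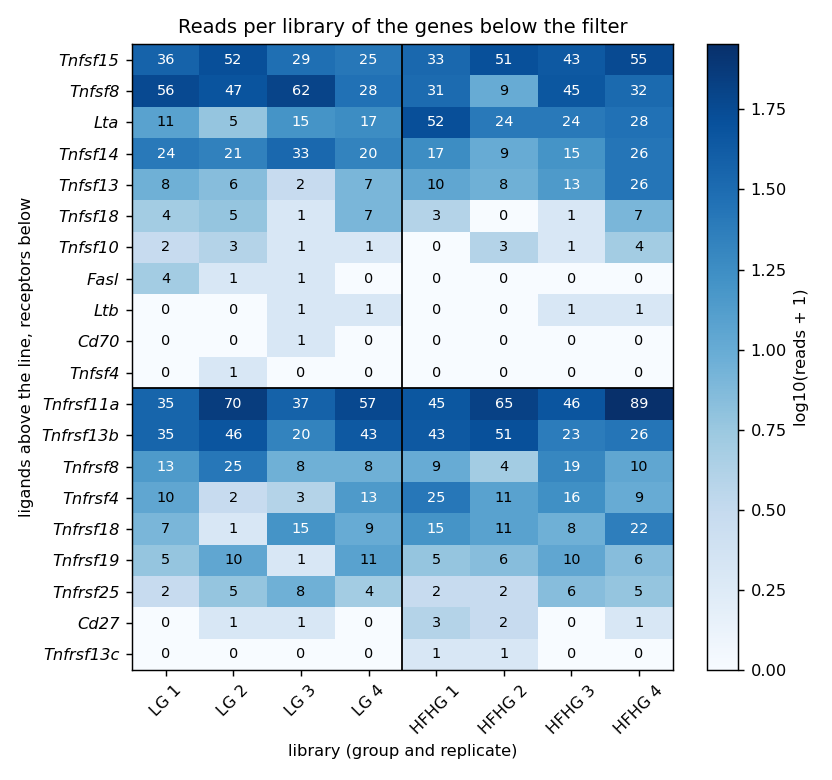
Reads per library for the 20 members below the filter, with 1 column per library (4 HFHG, 4 LG), 1 row per gene the number printed in each cell and colour for log10(reads + 1). Lta stands out with 24 to 52 reads in HFHG and 5 to 17 in LG, and Fasl has 0 reads in all 4 HFHG libraries.

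Genes that act with the superfamily were read from 6 lists of pathway genes, chosen with earlier results of these data known. Of 6 further superfamily genes that were tested, 2 were higher in HFHG and none was lower: the receptors Eda2r (log2 fold change 0.88) and Relt (0.60). Among 25 tested adaptors and kinases close to the receptors, 8 were higher and 7 were lower, against 12 and 4 with the libraries scaled to the same sum. The largest increases were in Map3k14 (0.71), the kinase of the alternative NF-κB pathway, Map3k7 (0.58) and Birc2 (0.39). The largest decreases were in Tradd (-0.38) and Fadd (-0.31), the death domain adaptors, and Rbck1 (-0.37). Among 16 genes of cell death, 5 were higher and 10 were lower, against 6 and 7 with the same sum. Apaf1 (0.37) was among those that rose. Bid (-1.03), which links death receptors to mitochondria, and the necroptosis genes Zbp1 (-0.59) and Mlkl (-0.44) fell most.

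Among 24 tested targets of NF-κB and TNF, 13 were higher in HFHG and 5 were lower, but with median-ratio scaling 9 were higher and 7 lower. The inhibitor Nfkbia (0.94), the adhesion molecule Vcam1 (0.86) and the chemokine Cxcl1 (0.78) rose most, and Lif (-0.99), Tnfaip2 (-0.54) and Relb (-0.45) fell most. Of 6 genes of ligand and receptor shedding, 4 were higher and 2 were lower, against 4 and 1 with the same sum. Timp3 (0.22), an inhibitor of the sheddase, Adam10 (0.17) and Rhbdf2 (0.15) rose, and Adam17 (-0.33), which cuts TNF and its receptors from the membrane, and Rhbdf1 (-0.14) fell. Of 8 genes of the osteoclast, which RANKL serves, 5 were tested, of which 1 was higher and 4 were lower: Nfatc1 rose (0.45), and Ctsk (-1.80), Mmp9 (-0.57) and Acp5 (-0.47) fell most. Csf1r of this list is also a macrophage marker. Ctsk is also made by fibroblasts and macrophages. Tendon cell markers rose and macrophage markers fell (medians 0.60 and -0.41), and the part of these cells in this result was not tested. All these calls are limma adjusted p below 0.05 over all tested genes, for which 34.0% and 30.8% were higher and lower, and no list was tested as a set.

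**Figure D5:**
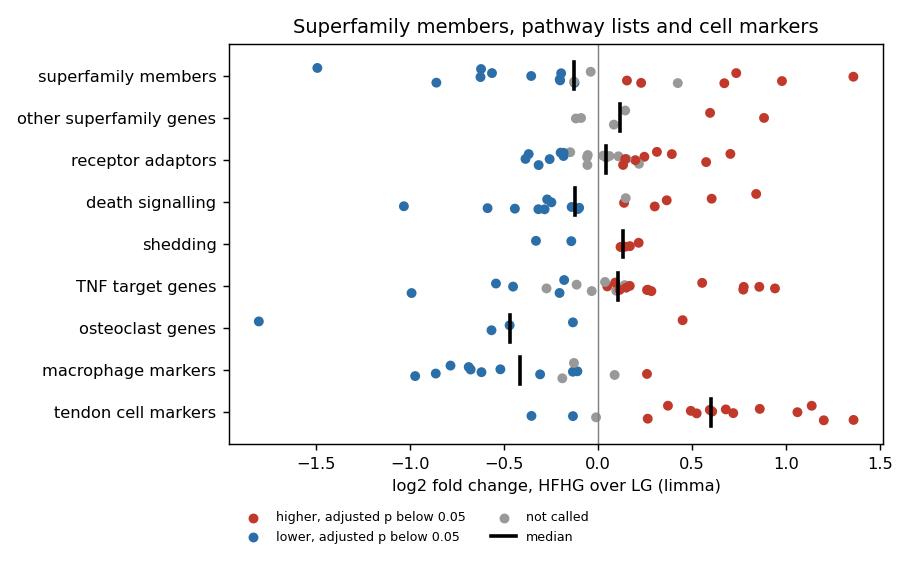
Log2 fold change of FPKM (HFHG minus LG) of each tested gene in the superfamily, the 6 pathway lists and the macrophage and tendon cell markers, with 1 point per gene, coloured by direction where the limma adjusted p is below 0.05 and grey otherwise, and a line for the median of each list. The NF-κB and TNF targets number 13 higher and 5 lower (9 and 7 with median-ratio scaling), and the cell death genes 5 higher and 10 lower (6 and 7 with the same sum).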

How the data were processed

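RNA of mouse TSCs was sequenced as 4 HFHG and 4 LG stranded mRNA libraries. The labels gave each library's group and number. The authors deposited FPKM values for 19301 genes, per library and not pooled. Per the submitters' processing notes, HISAT2 2.1.0 and the build mm10 were used. The counting program and the annotation are not given in the sources used here. The reads behind each FPKM were recovered from its steps, and 19300 of 19301 genes gave whole reads in all libraries (tolerance 0.001).

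FPKM + 0.1 was log2 transformed, and genes with at least 0.5 FPKM in at least 4 of 8 libraries were fitted with limma 3.58.1 in R 4.3.3 (eBayes with an intensity trend, Benjamini-Hochberg over all genes tested). The fit was tested on simulated data. For members below the filter, the means were tested by exact two-sided permutation, without adjustment for the number of members. Its 70 arrangements allow no p below 0.0286. The 50-base words of each longest transcript were compared with all GENCODE transcripts. For some members this transcript was shorter than the length behind the FPKM. The members and lists were chosen with earlier results of these data known. Every member is named, values per library are given for called members with an absolute log2 fold change of at least 0.4 or a mean of at least 20 FPKM and for their partners, and of each list up to 3 genes in each direction. Shared replicate numbers did not pair libraries. Another pseudocount, filter, scaling, fit and each left-out library were tried. Protein sequences were not used here. Some genes of these lists are not reported here.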

Additional observations from a re-analysis of the deposited data

Results flagged for a closer look

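In 2 of 58 groups of 4 libraries, tested gene by gene, the values held a library far from the other 3 by Dixon's test, and chance gives about 1 in 20. Lta in HFHG replicate 1 was at 0.855 FPKM, against 0.410 to 0.471 FPKM in the other HFHG libraries. Tnfrsf12a in HFHG replicate 4 was at 149.9 FPKM, against 160.1 to 161.1 FPKM in the other HFHG libraries. As the lowest library of the lower group, it could not bring about an overlap with LG.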

How the results depend on the processing

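Of the 16 called members, 13 kept direction and call in all 18 alternatives, and Cd40, Ltbr and Tnfsf12 lost the call in some. With the replicate block, 6 members were higher and 10 lower, and no member's call changed. The replicate numbers do not pair the libraries: deviations of same-numbered libraries correlated between -0.07 and -0.006. Over all alternatives the members called higher numbered 5 to 7 and those called lower 8 to 11. With a log2 fold change above 1 also required, 1 member was higher, 0 with a pseudocount of 1, 2 without the filter, 2 with scaling to the same sum, and 1 to 2 with 1 library left out (2 without HFHG replicate 1 and without LG replicate 4). With one below -1, 1 member was lower and 0 with a pseudocount of 1. With the same sum, adaptors went from 8 higher and 7 lower to 12 and 4, shedding genes from 4 and 2 to 4 and 1, and cell death genes from 5 and 10 to 6 and 7. With median-ratio scaling, NF-κB and TNF targets went from 13 and 5 to 9 and 7. With the same sum, Tnfrsf1b turned to 0.022 (adjusted p = 0.704, range over all alternatives 0.152 to 0.847). Tnfrsf11b passed the threshold only with quantile scaling (-0.21, adjusted p = 0.0292, range 0.0292 to 0.516). Scaling to the same sum moved the median log2 fold change of all genes from 0.02 to 0.07. The cause of these changes was not tested. Members below 0.5 FPKM rest on few reads in a library, and counting intervals do not include the spread between libraries.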
